A study of Rattus norvegicus with 16 samples.

Results

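CpG-dense stretches of the rat genome with low methylation were examined in the amygdala of young and adult rats. The 1578 windows were taken from 86065 windows of 1 kb on chromosomes 1 to 20 by a rule on 10 libraries. Each window held at least 3 CpG cytosines read 10 or more times in all 10 libraries. It also held at least 17 distinct CpGs listed in any of them, and its methylation, as the mean over the 4 high-fat P7 libraries, was under 20%. The windows are 1.83% of all windows and 7.16% of the 22053 windows with that CpG density. Their low level at postnatal day 7 (P7) was therefore fixed by the choice: the windows were selected on methylation measured in the high-fat P7 libraries, and that level is described without a test.

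Methylation was measured by reduced representation bisulfite sequencing, which reads mainly the CpG-rich fragments of the genome, in female Long-Evans offspring. Dams ate a control diet or a high-fat diet before pregnancy and through gestation and lactation, and the offspring themselves did not eat the high-fat diet. The groups used were control diet at P7 (4 libraries), high-fat diet at P7 (4 libraries) and control diet at postnatal day 90 (P90, 2 libraries), where P90 animals had been weaned to control diet. The other control P90 libraries (2) and all 4 high-fat P90 libraries come from a second set, named by its titles, and are described only at the end. The amygdala was cut from frozen sections at stereotaxic ranges that differ between the ages, so age and the range dissected cannot be told apart. Whether the animals were littermates is not stated, and p-values measure the spread between these libraries, which may be technical. The tissue is a mixture of cells, so a change in methylation within cells and a change in the shares of cells cannot be told apart.

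In mammals most CpG cytosines carry a methyl group and have been lost over evolution by mutation to TG. CpG islands are the exception: dense in CpG, usually unmethylated, and often found at the start of genes. DNA methyltransferases add the mark, TET enzymes start its removal, and methylation of a promoter's island is commonly linked with silencing of its gene. In the brain, methylation is laid down and remodelled after birth, while neurons and glia mature.

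Promoters of 6 genes in these windows are shown first, because the results below differ between them. The bases are the 250 before the start, 5′ to 3′ on the gene's strand, from RefSeq sequence of GRCr8. Capitals mark the CpGs that the deposited files list in at least 1 of the 10 libraries, at positions matched by the spacing of CpGs. The first 4 starts lie in windows whose methylation was called higher at P90. Ppara encodes a nuclear receptor for fatty acids, Esrrg an orphan nuclear receptor, Abhd15 an adipose hydrolase-fold protein linked to insulin signalling, and Cldn7 a tight junction protein.
Ppara: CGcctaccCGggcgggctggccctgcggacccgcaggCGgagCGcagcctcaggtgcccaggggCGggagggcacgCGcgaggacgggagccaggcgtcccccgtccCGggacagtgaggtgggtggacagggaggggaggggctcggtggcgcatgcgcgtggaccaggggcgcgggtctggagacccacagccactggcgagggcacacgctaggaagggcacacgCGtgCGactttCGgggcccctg
Esrrg: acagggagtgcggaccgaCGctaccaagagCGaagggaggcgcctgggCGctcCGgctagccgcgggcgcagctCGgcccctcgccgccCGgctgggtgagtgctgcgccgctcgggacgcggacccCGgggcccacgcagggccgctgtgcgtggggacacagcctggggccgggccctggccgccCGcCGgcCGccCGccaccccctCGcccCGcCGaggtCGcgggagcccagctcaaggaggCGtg
Abhd15: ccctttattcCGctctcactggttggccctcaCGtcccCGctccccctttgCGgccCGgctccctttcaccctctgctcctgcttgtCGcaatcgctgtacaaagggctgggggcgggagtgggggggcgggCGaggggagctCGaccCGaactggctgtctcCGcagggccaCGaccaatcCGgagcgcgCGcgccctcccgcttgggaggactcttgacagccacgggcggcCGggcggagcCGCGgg
Cldn7: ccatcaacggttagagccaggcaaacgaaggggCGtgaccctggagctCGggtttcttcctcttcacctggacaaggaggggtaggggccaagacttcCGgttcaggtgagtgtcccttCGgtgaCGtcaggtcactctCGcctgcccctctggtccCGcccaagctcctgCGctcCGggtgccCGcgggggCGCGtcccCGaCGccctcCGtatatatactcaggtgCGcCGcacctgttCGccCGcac

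The next 2 starts lie in windows that were not called. Slc1a2 encodes the main glutamate transporter of astrocytes and Rxfp3 the receptor of the neuropeptide relaxin-3.
Slc1a2: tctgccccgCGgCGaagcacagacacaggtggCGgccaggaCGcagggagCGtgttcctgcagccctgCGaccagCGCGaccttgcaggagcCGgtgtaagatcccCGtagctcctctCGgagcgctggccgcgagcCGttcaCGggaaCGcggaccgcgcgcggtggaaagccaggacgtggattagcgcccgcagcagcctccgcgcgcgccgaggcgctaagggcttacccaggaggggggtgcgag
Rxfp3: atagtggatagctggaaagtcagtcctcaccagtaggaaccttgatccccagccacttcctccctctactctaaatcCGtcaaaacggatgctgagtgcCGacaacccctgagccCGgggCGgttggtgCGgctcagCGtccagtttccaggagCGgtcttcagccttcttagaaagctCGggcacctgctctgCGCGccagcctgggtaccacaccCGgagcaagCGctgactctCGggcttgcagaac

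In these 6 sequences the share of G and C ran from 59.6% to 80% and the number of CpGs from 14 to 35, of which 10 to 19 were listed. All 6 hold the letters CCGG, a palindrome read alike on both strands, between 1 and 5 times. Those letters occur in 46.2% of the 33469 RefSeq promoter sequences of 300 bases and in 93.75% of those placed inside the windows. CCGG is the site of MspI, the enzyme commonly used for this kind of library. The promoters also differed in CpGs, with a median of 5 over all and 19.5 in those placed inside the windows. The parts of the method and of CpG number in the share with CCGG were not tested. On Rnor_6.0 the matched CpGs ran from chr7:126618946 to 126619236 at Ppara, from chr13:106110697 to 106110940 at Esrrg and from chr10:62648805 to 62649083 at Abhd15. At Cldn7 they ran from chr10:56576211 to 56576470, at Slc1a2 from chr3:92518438 to 92518723 and at Rxfp3 from chr2:61007722 to 61007939.

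The windows held a median of 27 listed CpGs (17 to 200), against 11 over all windows. A median of 6 cytosines per window (3 to 72) met the read minimum in all 10 libraries, 13228 in all. The level that the rule used had a median of 12.4% (quartiles 8.74% and 16.1%, lowest 0.636%). Near the limits the choice was not sharp: 108 windows had exactly 17 CpGs and a low level, and 113 had 16. Likewise 91 dense windows lay at 19 to 20% and 110 at 20 to 21%. The windows nearest inside the limit of level were chr18:49486001-49487000 and chr3:160558001-160559000 at 19.995% and 19.993%, and those nearest outside were chr3:111561001-111562000 and chr17:54525001-54526000, both at 20.02%.

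The depth of the control P90 libraries in the windows lay within the range of the control P7 libraries. Median reads per cytosine were 53.8, 33.5, 57.3 and 46.8 in the 4 control P7 libraries and 44.6 and 48.7 in the 2 control P90 libraries. The 4 high-fat P7 libraries, which chose the windows, had medians of 79.1, 45.6, 67.2 and 54.0. Every listed cytosine had at least 1 methylated read, so cytosines with none are not seen and the low levels here are upper estimates. Of the 51744 CpGs in the windows, 25.2% were listed in all 10 libraries and 21.9% in only 1. The listed share was 45.1% to 56.2% in control P7 libraries and 58.4% and 59.9% in control P90 libraries. The part of listing in the results was not tested other than by a zero-truncated estimate, which is given with the age comparison. Methylation of mitochondrial CpGs, a measure of unconverted cytosine, was 0.295% to 0.335% in control P7 and 0.276% and 0.285% in control P90. These values rest on 18 to 23 listed sites per library, each with at least 1 methylated read, and are upper estimates too.

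The windows were more methylated in adult than in neonatal amygdala, in both adult libraries and in most windows. The median window stood at 13.4%, 11.6%, 12.6% and 12.8% in the control P7 libraries and at 18.0% and 17.7% in the control P90 libraries. Both adult libraries were above all 4 neonatal ones, and the interquartile ranges overlapped. The mean of library medians was 12.6% ± 0.760 (SD, n = 4) in neonates and 17.9% ± 0.231 (SD, n = 2) in adults. Over all windows it was 86.0% ± 0.602 (SD, n = 4) and 85.7% ± 0.118 (SD, n = 2). Within windows the median difference was 5.24 points (quartiles 1.49 and 9.54), against a median of 0.518 points over all windows. Of the 1578 windows, 1342 (85.04%) lay higher at P90, where 48074 of all 86065 windows (55.9%) did.

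**Figure D1:**
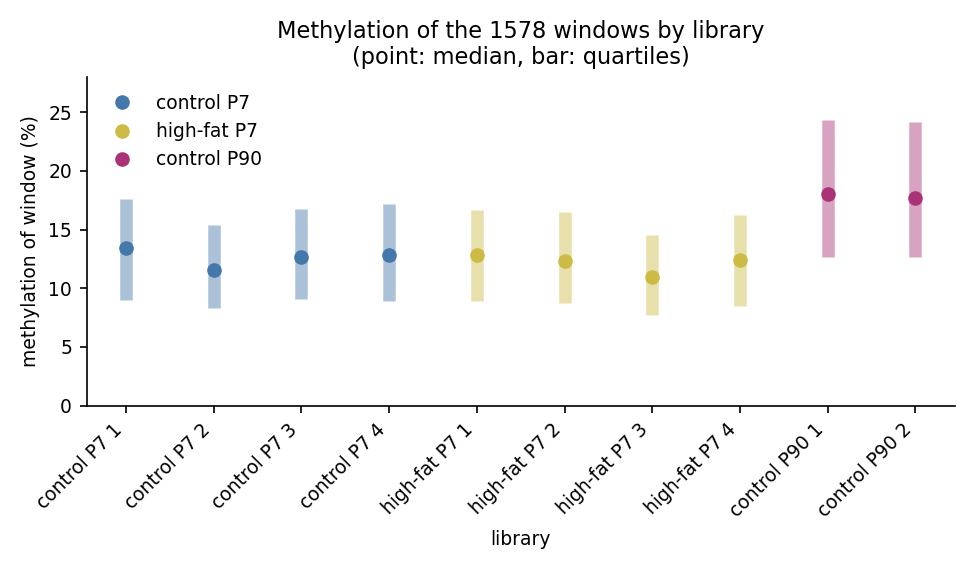
Methylation of the 1578 windows (vertical axis, % of reads) in each of the 10 libraries (horizontal axis), as median (point) and quartiles (bar), coloured by group. The medians of both control P90 libraries, 18.0% and 17.7%, lie above those of all 8 P7 libraries.

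Age was tested window by window with a logistic model of the read counts, its dispersion moderated over all 86065 windows. At an adjusted p under 0.05, 570 of the 1578 windows (36.1%) were called higher at P90, where 7.44% of all windows were. Called lower were 16 (1.01%), where 5.02% of all windows were. The windows were kept for a low level in P7 libraries, which leaves little room to fall and favours higher over lower levels at P90, so this asymmetry against all windows is partly set by the choice. The windows called higher had medians of 12.01% at P7 and 24.2% at P90, and those called lower 15.4% and 6.27%. In 887 windows (56.2%) both adult libraries lay above all 4 neonatal ones, where 18.2% of all windows did. In 50 (3.17%) both lay below, where 12.4% did. The 2 adult libraries are the weak point of this comparison: without control P90 replicate 1, 396 windows were called higher and 9 lower, and without replicate 2, 366 and 9. A zero-truncated binomial estimate allows for cytosines that go unlisted for want of a methylated read. With it the median difference was 5.45 points. Its log-odds were tested with limma in place of the logistic model, and 227 windows were called higher and 5 lower. Limma on the log2 ratio of counts, without that estimate, called 333 higher and 8 lower. The count of 227 thus differs from 570 by the test as well as the estimate. With each window's own dispersion in place of the moderated one, the logistic model called none after adjustment, and 667 had an unadjusted p under 0.05, of which 646 were higher at P90.

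The calls were not of equal size. A difference of 10 points or more was seen in 365 windows, of 20 or more in 47, and of -10 or lower in 3. Called with a difference of at least 10 points were 341 windows higher (21.6%), where 6.03% of all windows were. Lower were 3 (0.190%), where 3.75% of all windows were. The low level kept by the choice leaves little room for a fall of 10 points. At P90 626 windows stood at 20% or above and 25 at 40% or above, while 104 stood at 20% or above in control P7. The rule itself set 20% as the limit in high-fat P7 libraries, whose window levels correlated at 0.896 with those of control P7. The low count in control P7 is therefore partly fixed by the choice. Single cytosines of the same windows, to which the same limit applies, also shifted upward. Of the 13228 cytosines, 11.7% were under 5% methylated in control P7 and 5.70% in control P90. Those at 20 to 40% made up 17.7% and 35.0%, and those at 60% or above 1.29% and 2.09%.

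**Figure D2:**
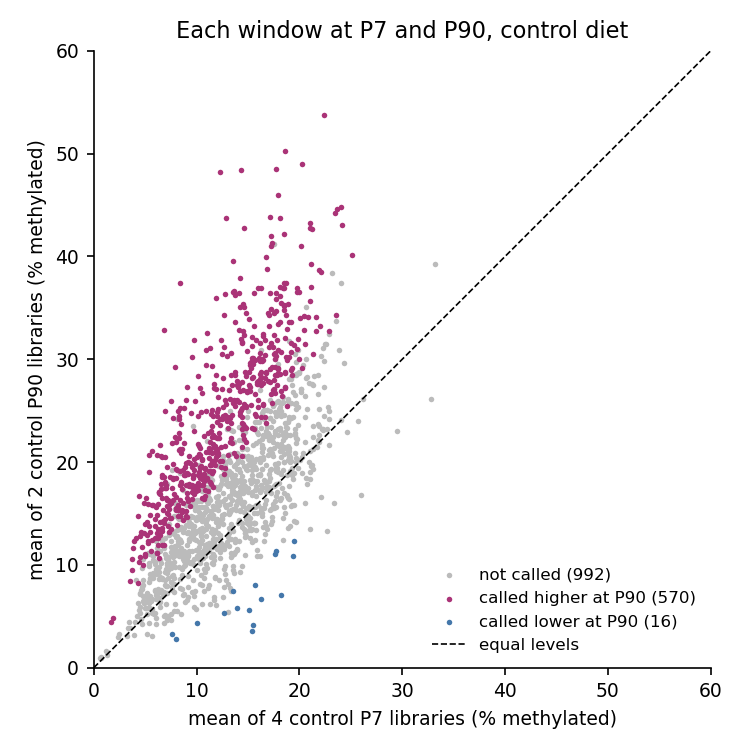
Each of the 1578 windows by its mean methylation in the 4 control P7 libraries (horizontal axis, %) and in the 2 control P90 libraries (vertical axis, %), with the line of equal levels. Of the windows, 570 were called higher (purple) and 16 lower (blue), and 992 were not called (grey).

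Calls of higher methylation were made at every level within the low range, with the smallest median difference at the bottom. By the level in high-fat P7 libraries, the 71 windows under 5% had a median difference of 2.07 points and 23.9% of them were called higher. The 454 windows at 5 to 10% had 5.11 points and 41.2%, the 549 at 10 to 15% had 5.53 points and 37.2%, and the 504 at 15 to 20% had 6.04 points and 32.1%. As a ratio of P90 to P7 the medians of these classes were 1.47, 1.60, 1.44 and 1.34, so the lowest windows were not behind on that scale. By density, 35.8% of 617 windows with 17 to 24 CpGs, 38.2% of 573 with 25 to 39 and 33.5% of 388 with 40 or more were called higher. The share called followed the number of cytosines behind a window, at 25.1% with 3 to 4, 38.1% with 5 to 9 and 45.2% with 10 or more. The difference between these shares was not tested.

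Neighbouring classes of windows moved in the same direction, and nothing here sets the dense, low windows apart from them. Dense windows at 20 to under 40% (2253) had a median difference of 5.35 points, with 27.9% called higher and 1.997% lower. Windows of the same low level with fewer than 17 CpGs (1832) had 6.36 points, with 36.8% called higher and 1.20% lower. The difference between the classes was not tested.

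**Figure D3:**
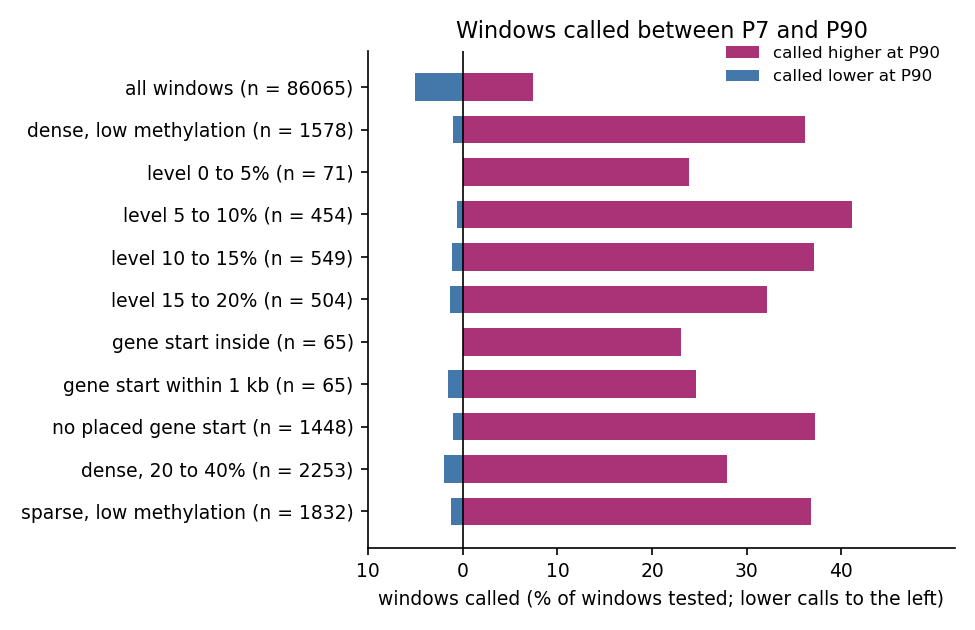
Percent of tested windows called higher (purple, right of 0) and lower (blue, left of 0) at P90, by class of window, with the number of windows. The dense, low windows stood at 36.1% and 1.01% and all windows at 7.44% and 5.02%.

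The windows with the smallest adjusted p for higher methylation gained 23.7 to 34.1 points, and at none of them is a gene start placed. On chr2:185851001-185852000, with 24 cytosines and 750 to 2075 reads per library, methylation was 13.7%, 9.47%, 17.3% and 13.6% in control P7 and 38.6% and 40.5% in control P90. Both adult libraries were far above the highest neonatal one, and the window passed the test (adjusted p = 1.59e-08, logistic model). On chr9:71443001-71444000, with 7 cytosines, it was 16.6%, 13.9%, 15.7% and 11.0% against 53.1% and 43.7% (adjusted p = 1.49e-07, logistic model). On chr2:232021001-232022000, with 6 cytosines, it was 7.00%, 10.4%, 6.09% and 3.72% against 37.0% and 28.8% (adjusted p = 3.83e-08, logistic model). In each of these windows the groups lay far apart. The others were chr1:218339001-218340000, from 20.3% to 48.996%, chr3:47518001-47519000, from 17.3% to 41.0%, and chr16:69096001-69097000, which had the smallest adjusted p of all and a gain of 30.8 points. All 6 kept their call without any 1 of the 6 control libraries.

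The 6 windows with the smallest adjusted p for lower methylation stood at 3.61% to 7.09% at P90. On chr4:159823001-159824000, with 5 cytosines and 179 to 446 reads per library, methylation was 19.9%, 8.94%, 17.0% and 16.3% in control P7 and 5.06% and 3.34% in control P90 (adjusted p = 9.16e-05, logistic model). On chr10:91500001-91501000, with 3 cytosines, it was 16.9%, 15.6%, 17.7% and 11.2% against 4.41% and 2.82% (adjusted p = 0.000171, logistic model). The groups did not overlap in either window, though replicate 2 on chromosome 4 and replicate 4 on chromosome 10 lay below the other neonatal libraries. On chr20:5080001-5081000 the mean went from 15.1% ± 3.46 (SD, n = 4) to 5.62% ± 0.138 (SD, n = 2), and on chr8:58403001-58404000 from 18.2% ± 4.91 to 7.09% ± 1.45. The remaining pair was less firm: chr1:81778001-81779000 lost its call without control P90 replicate 1 (adjusted p = 0.242, logistic model). The window chr15:27875001-27876000 lost it without control P7 replicate 1, control P90 replicate 1 or control P90 replicate 2 (adjusted p = 0.0912, 0.117 and 0.0575, logistic model).

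Gene starts could be placed in or near a minority of the windows. A start lay inside 65 windows and within 1 kb of 65 more, so 130 windows and 130 genes were linked, and for 1448 windows no start was placed. Among dense windows the share within 1 kb of a placed start was 8.24% at the low level, 6.57% at 20 to 40%, 7.60% at 40 to 60%, 1.59% at 60 to 80% and 0.296% at 80% or above. It was 0.873% over all windows and 2.46% in sparse windows of low level. The share with a placed start inside was not highest at the low level. In the same order of level it was 4.12%, 4.88%, 4.71%, 0.955% and 0.176%. Over all windows it was 0.410%, and in sparse windows of low level 0.491%. Starts were placed only where at least 10 of their CpGs were listed, which favours dense and read promoters.

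Windows that held a placed gene start had a smaller median difference than windows without one. The latter can hold a start that could not be placed. The 65 with a start inside had a median difference of 2.16 points and 15 (23.1%) called higher, and the 1448 without a placed start had 5.52 points and 539 (37.2%). Windows with a start nearby but not inside had 3.96 points, with 16 of 65 called higher and 1 lower. Part of the comparison moves with the number of cytosines, a median of 4 in windows with a start inside and 7 in windows with none placed. The median number of listed CpGs was 39 and 27. With 3 to 4 cytosines, 3 of 38 windows (7.89%) with a start inside were called higher and 114 of 423 (27.0%) without a placed start. With 5 to 9, the counts were 8 of 18 (44.4%) and 227 of 589 (38.5%). With 10 or more, they were 4 of 9 (44.4%) and 198 of 436 (45.4%). With a start inside, the median differences in these 3 classes were 1.28, 5.30 and 3.20 points. Without a placed start they were 4.54, 5.53 and 6.19 points. The gap in the share called was thus wide only with 3 to 4 cytosines, while the median difference was smaller with a start inside in all 3 classes, and neither was tested.

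Methylation was higher at P90 at every distance from the placed start. All these cytosines lie in windows kept for a level under 20%, so a low level at each distance was set by the choice. Within 250 bp of a placed start, 165 cytosines averaged 15.1% ± 1.03 (SD, n = 4) in control P7 and 18.7% ± 0.142 (SD, n = 2) in control P90. At 250 to 500 bp the values were 13.8% ± 0.896 and 17.5% ± 0.472, and at 500 to 1000 bp 15.6% ± 0.657 and 19.7% ± 0.365. At 1000 to 2000 bp they were 12.1% ± 0.397 and 17.5% ± 1.44. In each of the 4 distance classes both adult libraries lay above all 4 neonatal ones.

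**Figure D4:**
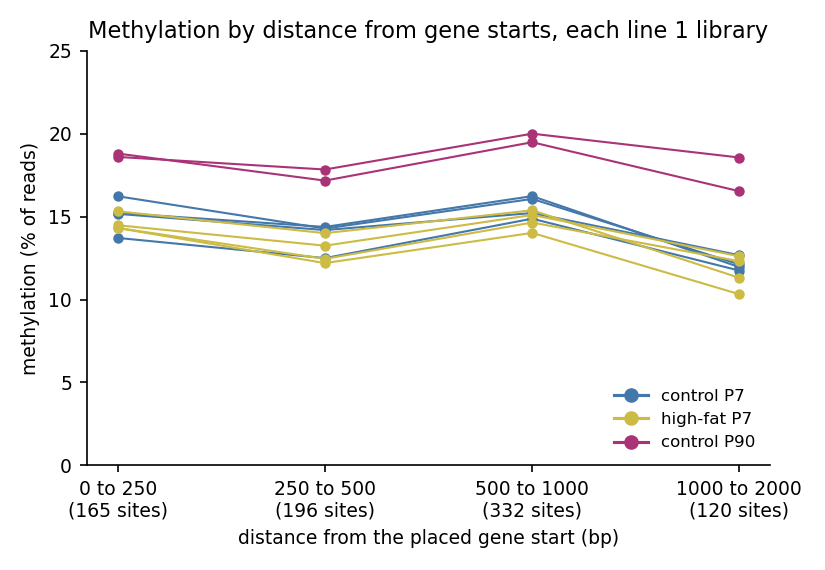
Percent methylation of cytosines in the windows (vertical axis) by distance from the nearest placed gene start in bp (horizontal axis), with 1 line for each library. The control P90 lines lie above those of all P7 libraries in each distance class, for example at 18.7% against 15.1% on average within 250 bp.

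The linked genes were sorted into groups by their known roles after their names and values had been seen. The groups therefore describe the list and support nothing by themselves. Of 9 windows at metabolism and hormone genes, 6 were called higher and none lower, with a median difference of 7.98 points (0.246 to 18.5). Beside this and the groups below stand 36.1% called higher in the whole set, 7.44% of all windows, and 23.1% and 24.6% of windows with a start inside or nearby, and no group was tested against these shares. At Abhd15 methylation was 11.4%, 9.95%, 11.1% and 11.2% in control P7 and 26.5% and 32.5% in control P90. The adult libraries stood far above the neonatal ones (adjusted p = 5.95e-07, logistic model). At Ppara it was 10.5%, 8.43%, 11.1% and 13.0% against 19.2% and 18.3%, again without overlap (adjusted p = 0.00395, logistic model). Both windows kept their call without any 1 of the 6 libraries. Ppara lost it with limma on the log2 ratio of counts (adjusted p = 0.0656) and with limma on the zero-truncated estimate (adjusted p = 0.0979). At Esrrg it was 16.1%, 11.9%, 10.4% and 11.8% against 33.0% and 15.9%. There the groups overlapped, and the call (adjusted p = 0.0152, logistic model) was lost without control P90 replicate 1 (3.32 points, adjusted p = 0.587) and without control P7 replicate 3 (adjusted p = 0.0665).

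The transporters of this group gave moderate gains. At Slc29a1, a nucleoside transporter, the window went from 11.5% ± 2.53 (SD, n = 4) to 20.1% ± 1.62 (SD, n = 2), and near Slc37a1, an exchanger of sugar phosphates, from 12.01% ± 0.878 to 21.2% ± 2.82. At Slc5a5, which carries iodide into thyroid cells, it went from 14.8% ± 1.27 to 21.9% ± 3.23. All 3 were called, and the first pair lost the call without control P90 replicate 1 (adjusted p = 0.0821 and 0.0968, logistic model). Slc5a5 lost it without any of control P7 replicates 1, 2 and 4 and control P90 replicate 2 (adjusted p = 0.0513, 0.0642, 0.0663 and 0.396, logistic model). Near Aldh1a2, an enzyme of retinoic acid synthesis, the values were 15.3% ± 2.35 and 20.5% ± 1.70, which did not pass the test. Near Epas1 and Cyp1b1, also of this group, the differences were 0.246 and 0.404 points, and neither window was called.

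Genes of neurons and synapses gave 13 windows, of which 2 were called higher (36.1% in the set, 7.44% of all windows) and none lower, with a median difference of 2.53 points. At Kcnj5, a subunit of G-protein-gated potassium channels, methylation was 4.23%, 6.09%, 7.79% and 10% in control P7 and 22.1% and 10.9% in control P90 (adjusted p = 0.0246, logistic model). Only adult replicate 1 stood clear of the neonatal libraries, and the call was lost without it (adjusted p = 0.446) and without control P7 replicate 1 or 2 (adjusted p = 0.0841 and 0.0555, logistic model). Chrm4, a muscarinic acetylcholine receptor, had adjacent windows of opposite direction. The window holding its start, which it shares with LOC134486121, stood at 7.78%, 11.9%, 7.77% and 6.59% at P7 and 4.79% and 5.64% at P90. Both adult libraries were the lowest there, without passing the test (adjusted p = 0.327, logistic model). The next window stood at 9.06% ± 0.796 (SD, n = 4) and 14.7% ± 2.65 (SD, n = 2) and was called (adjusted p = 0.0218, logistic model), but not without control P90 replicate 2 or control P7 replicate 4 (adjusted p = 0.317 and 0.0624).

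Other synaptic genes did not pass. Slc1a2, shown above, stood at 15.8%, 8.49%, 9.42% and 7.36% in control P7 and 9.74% and 13.7% in control P90, so the groups overlapped. Rxfp3, also shown above, was among the least methylated, at 3.41%, 2.80%, 3.67% and 6.15% against 4.67% and 4.21%. Slc6a3, the dopamine transporter, had 15.9% ± 4.40 (SD, n = 4) and 23.0% ± 1.13 (SD, n = 2), and Gabrg3, a GABA receptor subunit, 17.2% ± 2.60 and 22.2% ± 4.13. At Cdk5r1, the activator of the neuronal kinase Cdk5, the values were 10.2% ± 1.005 and 16.2% ± 1.07. In these 3 windows both adult libraries lay above all neonatal ones. At Grip2, a scaffold of glutamate receptors, both lay below, at 6.37% ± 0.836 against 8.90% ± 1.36.

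Developmental transcription factors had 7 windows, with 2 called higher (36.1% in the set, 7.44% of all windows), none lower and a median difference of 5.20 points. The 7 differences ran from 3.22 to 9.30 points, all above 0, as were 85.04% in the whole set and 55.9% over all windows. Near the homeobox gene Nkx2-3 methylation was 17.7%, 13.5%, 15.1% and 17.8% in control P7 and 24.1% and 26.5% in control P90 (adjusted p = 0.0304, logistic model). Near the forkhead gene Foxd2 it was 9.76%, 12.2%, 9.97% and 9.59% against 19.5% and 17.4% (adjusted p = 0.00342, logistic model). The groups were apart at both genes. The call at Foxd2 was lost without control P90 replicate 1 (adjusted p = 0.0625), and that at Nkx2-3 without either adult library or control P7 replicate 2 or 3 (adjusted p = 0.0652 to 0.212, logistic model). Near Pax1, a paired box gene, the values were 4.80%, 8.45%, 3.37% and 2.67% against 4.71% and 11.4%, which overlapped. Runx3, Hes5, Tlx3 and Gbx1 stood at 8.40%, 8.52%, 8.26% and 12.3% in control P7 and 15.05%, 13.7%, 12.5% and 16.1% in control P90, none of them past the test.

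A wider list of homeobox and developmental factor families held 65 genes, of which 13 could be placed and 2, Nkx2-3 and Pax1, lay near a window. The lists for the stress axis (11 genes), GABA and glutamate (10), DNA methylation (8), metabolism and appetite (8), housekeeping (8) and glial maturation (9) had none near a window, and at most 1 gene of each could be placed. For those genes no value is given here.

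In the innate immune group 2 of 7 windows were called higher and none lower, where 36.1% of the set and 7.44% of all windows were called higher. Irf5, a transcription factor of interferon and inflammatory responses, lay across 3 adjacent windows. The window 132 bp from its start stood at 13.6% ± 0.563 (SD, n = 4) in control P7 and 17.2% ± 1.44 (SD, n = 2) in control P90, and the one with the start at 7.83% ± 3.94 and 8.14% ± 6.54. The window 869 bp from the start, on the other side, stood at 17.3%, 8.37%, 14.7% and 13.3% against 25% and 30.1%. Only this last window passed, at an adjusted p of 0.00114 with the logistic model, and not without control P90 replicate 2 (adjusted p = 0.0769). Near Zc3hav1, an antiviral zinc finger protein, methylation was 16.6%, 19.4%, 13.9% and 23.0% against 30.7% and 40.2% (adjusted p = 0.0016, logistic model), and the call was lost without control P90 replicate 2 (adjusted p = 0.129).

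Epithelial and ion transport genes had 1 of 6 windows called higher, and the autophagy pair 1 of 2, where the share was 36.1% in the set and 7.44% over all windows. The window with the start of Cldn7 stood at 8.81%, 3.19%, 7.69% and 5.84% in control P7 and 15.5% and 18.5% in control P90 (adjusted p = 0.00557, logistic model). It rested on 3 cytosines with 94 to 283 reads per library, and the call was lost without control P90 replicate 2 (adjusted p = 0.0671). The next window, 573 bp from the start, stood at 5.32% ± 1.64 (SD, n = 4) and 6.98% ± 2.07 (SD, n = 2) and did not pass. Slc12a4, a potassium-chloride cotransporter, had 12.1% ± 1.60 and 17.4% ± 2.74, and did not pass either. Map1lc3b, an autophagosome protein of the Atg8 family, stood at 16.7%, 20.98%, 12.3% and 17.1% against 36.3% and 21.2%. The lower adult library lay close to the highest neonatal one, and the call (adjusted p = 0.0119, logistic model) was lost without control P90 replicate 1 (adjusted p = 0.529) or control P7 replicate 3 (adjusted p = 0.0623). Gabarapl2, of the same family, stood at 7.10% ± 2.43 and 4.64% ± 1.29, not past the test.

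Outside the groups, some of the larger gains at named genes lay at Hmga1, Wnt9b, Rbpms2 and Mfge8, chosen after their values were seen. Near Hmga1, a chromatin architectural protein, methylation was 14.3%, 13.7%, 16.7% and 13.8% in control P7 and 30.1% and 40.1% in control P90. Near Rbpms2, an RNA-binding protein, it was 15.4%, 18.4%, 12.8% and 16.3% against 30.6% and 33.2%, and at Mfge8, which marks dying cells for uptake, 18.5%, 18.4%, 14.1% and 17.2% against 31.9% and 30.5%. Near Wnt9b, a Wnt ligand, the mean went from 18.5% ± 3.02 (SD, n = 4) to 35.1% ± 5.93 (SD, n = 2). None of these windows had overlapping groups. All 4 passed, those near Hmga1 and Wnt9b not without control P90 replicate 2 (adjusted p = 0.083 and 0.0621, logistic model). The 1 window near a start that was called lower lay 51 bp from Spats1, a gene named for spermatogenesis, at 18.3%, 21.7%, 17.6% and 19.8% against 10.04% and 11.7%. Its call (adjusted p = 0.0419, logistic model) was lost without either adult library (adjusted p = 0.35 and 0.113) and without control P7 replicate 2, 3 or 4 (adjusted p = 0.0658, 0.0526 and 0.0754).

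**Figure D5:**
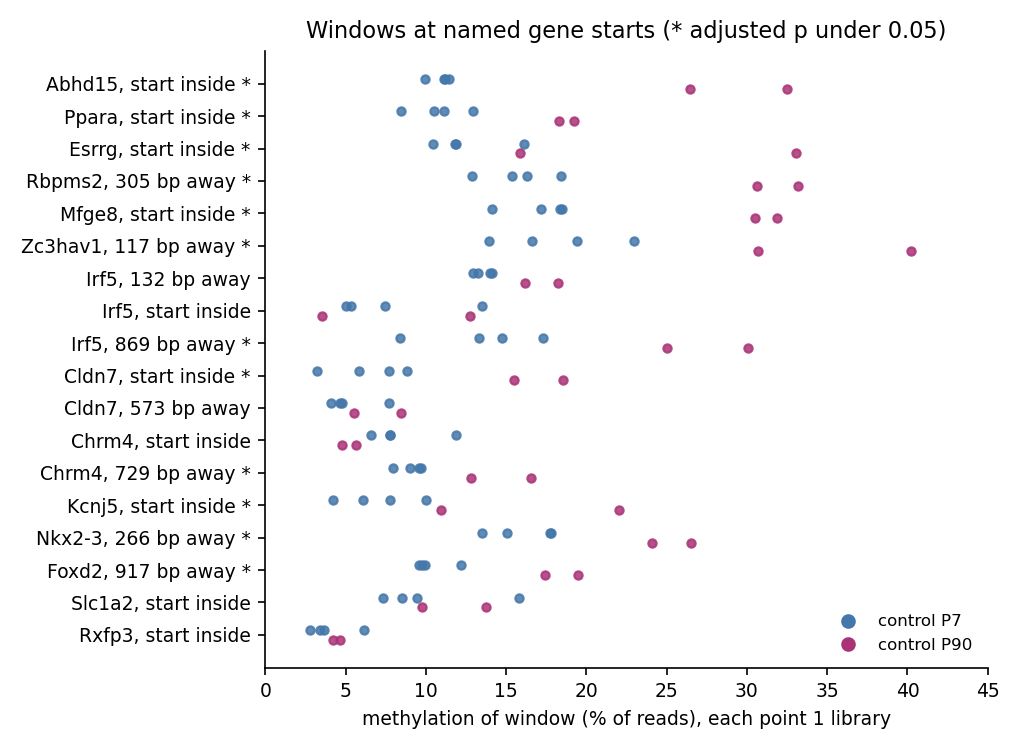
Methylation of windows at 14 named genes (vertical axis, with the distance of the window from the placed start in bp) in each control P7 (blue) and control P90 (purple) library (horizontal axis, % of reads), with a star where the adjusted p was under 0.05. The 4 neonatal points at Abhd15 lie between 9.95% and 11.4% and the adult ones at 26.5% and 32.5%, while the points at Slc1a2 and Rxfp3 overlap.

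Few of the windows had a tested neighbour: only 742 neighbours, counted once for each window they adjoin, met the minimum of reads and sites, so most runs ended where nothing was tested. Of 1476 runs of adjacent windows, 1385 held 1 window, 81 held 2, 9 held 3 and 1 held 4. The run of 4, chr3:22643001-22647000 with 25 cytosines and no placed gene start, averaged 8.55%, 8.19%, 8.41% and 6.65% in control P7 and 13.9% and 16.8% in control P90, and 3 of its windows were called higher. Of 102 adjacent pairs, both windows were called higher in 27 and 1 of them in 35. No pair held a window called higher beside one called lower, where only 16 windows of the set were called lower. Of the 742, 204 (27.5%) belonged to the set themselves. The other 538 had a median of 35.6% in control P7 and 41.2% in control P90, with a median difference of 4.31 points.

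The set was spread over all 20 autosomes, and made up between 1.14% (chromosome 13) and 2.47% (chromosome 1) of the windows of a chromosome. The share called higher ran from 26.7% of 116 windows on chromosome 7 to 55.0% of 40 on chromosome 15. Windows called lower numbered at most 3 on a chromosome, of 54 on chromosome 20. These shares were not compared by a test.

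The windows with the most CpGs, 200, 172 and 158, lay at chr1:11910001-11911000, chr1:11905001-11906000 and chr1:11911001-11912000, with 19899 to 259691 reads per library. In the first, methylation was 6.27%, 16.1%, 3.18% and 6.78% in control P7 and 12.3% and 36.1% in control P90. The libraries of a group differed far beyond counting error, with a dispersion of 589 to 7035 where the median window had 1.66, and none of the 3 was called. Whether these reads come from 1 locus was not tested. The largest spreads between control P7 libraries were an SD of 11.5 points at chr1:11961001-11962000 and at the window of Fsip1, where replicate 1 stood at 42.9% and the others at 19.6% to 20.5%, and of 10.2 points at chr2:231957001-231958000.

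Maternal diet at P7 is given as a description, since the high-fat P7 libraries chose the windows. Their median window stood at 12.8%, 12.3%, 10.9% and 12.4%, a mean of 12.1% ± 0.824 (SD, n = 4), against 12.6% ± 0.760 (SD, n = 4) in control P7. The ranges of the library medians overlapped. Within windows the median of high-fat minus control was -0.537 points (quartiles -1.73 and 0.586), with 607 windows above 0 and 971 below. Over all windows it was -0.298 points, with 38328 of 86065 above 0. A choice by low values in the high-fat libraries moves the difference in the chosen windows down by itself.

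The second set of P90 libraries covered the windows thinly and at other levels. Of the 1578 windows, 226 to 821 had 3 cytosines with 10 reads in each of the 6 libraries, control P90 replicates 3 and 4 among them. Their median level there was 43.2% to 55.7%, where the control P90 libraries of the first set stood at 18.8% to 20.1% in the same windows. Mitochondrial CpGs were 1.21% to 6.34% methylated in these 6 libraries, over 57 to 183 listed sites per library and with the same limit of listing. Between 4.60% and 12.1% of the windows' CpGs were listed in each. No comparison of diet at P90 was made in these windows.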

How the data were processed

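Reduced representation bisulfite libraries (16) of rat amygdala were prepared, per the labels' protocols, with a NuGEN Ovation RRBS kit. The deposited files give methylated and unmethylated read counts per CpG cytosine, which the authors did not normalize. The build was Rnor 6.0, per the submitters' processing notes. Neither an aligner's version nor the program behind the tables is given in the sources used here. The members and lists were chosen with earlier results of these data known.

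Counts of sites with at least 10 reads in all 10 libraries of the first set were summed per window of 1 kb with 3 or more such sites. A logistic model per window compared 2 control P90 with 4 control P7 libraries. Its Pearson dispersion was moderated with a trend in coverage and level (mgcv 1.9.3, limma 3.58.1) and never below 1. The F test was two-sided, and p-values were adjusted by Benjamini-Hochberg over 86065 windows at 0.05. The moderation added a median of 32.2 degrees of freedom to each window's own 4, so the p-values rest mostly on a spread shared over windows. The test was also run on simulated data whose dispersion was nearly equal in all windows. That run could not check how the test treats spread that differs between windows. Without molecular identifiers, reads need not be independent molecules.

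No sequence of the build was used here. Gene starts were therefore placed by matching the CpG spacing of RefSeq promoters (GRCr8, 300 bases) to listed CpGs, a step added after the files were seen. A place needed a seed of 4 consecutive gaps, at least 10 promoter CpGs listed, at most 1 listed CpG that the promoter lacks, and a lead of 3 over the next place. Of 13885 promoters with at least 10 CpGs, 2509 were placed, 99.8% on their own chromosome. The rest and 8 sharing a place were dropped, leaving 2496 starts of 2331 genes. Sequences were not used for the test.

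Windows named without a gene were the 6 with the smallest adjusted p in each direction without overlapping libraries, those nearest the limit of level, the longest run, and the 3 with the most CpGs or the largest SD in control P7. Genes named were those of the fixed lists and, chosen after their values were seen, the role groups and some others. Windows nearest the limit of CpG number were too many to name.

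Alternatives were 20 or 50 reads, an upper limit at the 99.9th percentile of coverage, 5 sites, each window's own dispersion, edgeR 4.0.16 with a term per library, limma on log2 of the count ratio with 1 added, a zero-truncated binomial estimate, sites with 5 methylated reads in each high-fat P7 library, merged strands, a difference of 10 points, a replicate block, each library left out, a level under 10% and 30 or more CpGs. The zero-truncated estimate was tested with limma on its log-odds, not with the logistic model. Python 3.11.15, numpy 2.4.6, pandas 2.3.3, scipy 1.17.1 and R 4.3.3 were used.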

Additional observations from a re-analysis of the deposited data

Results flagged for a closer look

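Dixon's criterion was applied to 100 groups of 4 P7 libraries. They were those of the set's median level, the windows named for their adjusted p and those at most named genes. Of these groups, 3 held a library far from the other 3. The windows named for CpG number, spread or the limits were not among them. Left out with these was the window of Fsip1, where control P7 replicate 1 stood at 42.9%. Chance flags about 1 in 20 such groups. Near Foxd2 control P7 replicate 2 stood at 12.2%, and the other 3 at 9.59% to 9.97%. In the window near Pax1 high-fat P7 replicate 1 stood at 6.07%, where the group's lowest library was at 2.72%. At chr8:58403001-58404000, called lower at P90, high-fat P7 replicate 2 stood at 23.5%, where the lowest library of the group was at 17.4%.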

How the results depend on the processing

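The share of windows called higher at P90, 36.1%, fell to 18.2% (26 of 143 windows) with 50 reads per site. It fell to 21.1% with limma on the log2 ratio and to 14.4% with limma on the zero-truncated estimate. With a difference of 10 points required it fell to 21.6%. Over all windows the share was 7.44%, and 7.86%, 4.62%, 3.59% and 6.03% in these settings. The share called lower, 1.01%, was 0%, 0.507%, 0.317% and 0.19% there, with 2 windows lower at an unadjusted p under 0.05 at 50 reads. It was 1.61% with sites of 5 methylated reads, and 0.571% and 0.581% under a level of 10% or with 30 or more CpGs. With each window's own dispersion, on 4 degrees of freedom, the logistic model called 0% higher and 0% lower after adjustment, in all windows as in these. At an unadjusted p under 0.05 it had 667 windows, 646 of them higher, while edgeR called 562 higher and 17 lower.

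The median difference of 5.24 points was 3.32 with 50 reads and 6.74 with sites of 5 methylated reads, and 5.45 with the zero-truncated estimate. Leaving out 1 library gave 23.2% to 34.7% higher, 0.57% to 1.01% lower and 5.01 to 5.62 points, and -0.764 to -0.147 points for diet at P7. Of 586 calls, 567 were also made by edgeR, 339 by limma on the log2 ratio and 232 by limma on the zero-truncated estimate.

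Title numbers 3 and 4 occur in both control groups, but nothing says that they pair animals. Deviations at the same number correlated at -0.0227 and -0.0466 over all windows, and at 0.0460 and -0.0465 over the set. The deviations of 2 adult libraries mirror each other, so these values cannot decide on pairing. A replicate block on the 4 libraries with these numbers called 390 windows higher and 0.57% lower, and made 384 of the 586 calls again. Among windows named for their adjusted p or gene, all 31 past the threshold lost the call with their own dispersion. It was lost by 14 with the zero-truncated estimate, 10 with limma on the log2 ratio and 8 with the block. With sites of 5 methylated reads 5 lost it, and with 20 reads 1. None changed direction. Among named windows not called, Slc1a2 turned to -0.40 points with the block, and with 1 library left out it ran from -0.53 (without control P90 replicate 2) to 3.47 points. With 1 library left out Pax1 ran from -0.11 (without control P90 replicate 2) to 6.54 points, and the Irf5 start window from -4.31 (without that library) to 4.94, also turning to -0.52 and -0.61 without control P7 replicates 2 and 3. Pax1 passed the test without control P90 replicate 1 (adjusted p = 0.0457, logistic model). Stricter placement, chosen after the data were seen, left 52 of 130 windows near a gene start. Depth limits the low end: 79.4% of the cytosines had under 5 methylated reads in some library.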
